A study of Mus musculus with 34 samples.

Results

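Chromatin accessibility was compared between hair follicle stem cells (HFSCs) that had lost the nuclear receptor gene Rxra and HFSCs that had kept it, both taken from mouse skin in late catagen. The comparison took the peak lists of the libraries titled as Rxra conditional knockout (cKO) mice 1 to 3 and Rxra wild type (WT) mice 1 to 4, which are 7 of the 34 libraries of the series. The series asks how HFSCs switch the clearance of dead neighbours on and off, in skin and in culture, and the assay was ATAC-seq, in which the Tn5 transposase cuts and tags open DNA. Each library was deposited as a list of peaks, called in that library alone.

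The 3 cKO mice carried the Sox9-creER driver, which acts in the outer root sheath and bulge of the follicle and not in the whole skin, with both Rxra alleles floxed and a floxed R26-YFP reporter. By the study's description of the sort, the WT mice of this assay were Rxra+/+ and carried the same driver and reporter, so Sox9-creER is common to the groups, while the labels give only Rxra WT. Mice of both genotypes received tamoxifen at the end of the growth phase, so tamoxifen is common to them too. Cells were sorted at the stage labelled CatVII by YFP and integrin α6, with YFP in the place that CD34 takes in the wild type sorts of the series. Before that gate the sort removed cells with the leukocyte, mast cell or melanocyte, fibroblast and endothelial surface markers CD45, CD117, CD140a and CD31, and cells with Sca1, a marker of the upper follicle and the epidermis between follicles. The titles number mice, so the libraries were treated as separate animals, with the exception described among the libraries.

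HFSCs sit in the bulge of the hair follicle and rebuild its lower part in each growth cycle. During catagen the lower follicle dies back, and epithelial cells of the outer root sheath engulf the dying cells. RXRα pairs with other nuclear receptors, among them the retinoic acid receptors, the liver X receptors and the peroxisome proliferator-activated receptors, and such pairs bind direct repeats of a short half-site in DNA and respond to retinoids and lipids. AP-1, GATA and LIM homeodomain factors are other classes of DNA-binding proteins that act in skin epithelium.

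Few regions were listed in every library of one genotype and in no library of the other. Lists were cut to the 41317 best-scoring peaks of every library, the number in the shortest list, and overlapping peaks (by 1 bp or more) were joined, which gave 81264 regions. Callable regions were those where at least 3 libraries had a listed peak. There were 40906, and 16473 of them had a listed peak in all 7 libraries. WT-specific regions, with a listed peak in all 4 WT libraries and in no cKO library, numbered 756 (1.85% of callable regions). cKO-specific regions, with a listed peak in all 3 cKO libraries and in no WT library, numbered 272 (0.665%). Both counts changed when 1 library was left out. Fewer libraries make the rule easier to meet, so a higher count follows in part from that. Without a cKO library, callable regions also needed fewer libraries. Leaving out cKO 1 gave 4167 cKO-specific and 2470 WT-specific regions of 52989 callable regions, which turned the order of the sets round. The 4167 rested on cKO 2 and cKO 3, which may come from 1 animal, as described below. Leaving out WT 1 gave 642 and 2658 of 38320. Leaving out cKO 2 gave 616 and 969 of 47930, and leaving out cKO 3 gave 471 and 1249 of 47603. These counts carry no p-value, and the values of their members follow from how the regions were chosen.

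The sequences under some of these summits are shown because they carry the motifs that differed in frequency between the sets. Each is 101 bases of the plus strand of the mouse build mm39 that holds a summit, and capitals mark matches, on either strand, to the AP-1 motif (TGACTCA or TGAGTCA), to the motif of GATA factors (AGATAA or TGATAA), to the LIM homeodomain motif (CTAATTA or TTAATTA) or to a direct repeat of the nuclear receptor half-site (AGGTCA or AGTTCA or GGGTCA or GGTTCA, repeated with 1 to 5 bases in between, called DR1 to DR5). Regions are named by the nearest transcription start, which need not belong to the gene whose intron holds the region. The first 4 WT-specific examples lie nearest Hagh (chr17:25075009-25075109, intron), Sptbn5 (chr2:119924243-119924343, intron), Rgs20 (chr1:5085721-5085821, intron) and Cxcl12 (chr6:117367516-117367616, intergenic). They rank 1, 2, 11 and 3 in the set by mean peak rank.
Hagh: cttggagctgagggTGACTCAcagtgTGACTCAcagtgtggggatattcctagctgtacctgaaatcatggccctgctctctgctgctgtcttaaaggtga
Sptbn5: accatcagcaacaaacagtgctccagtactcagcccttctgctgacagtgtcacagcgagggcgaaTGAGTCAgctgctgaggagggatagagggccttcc
Rgs20: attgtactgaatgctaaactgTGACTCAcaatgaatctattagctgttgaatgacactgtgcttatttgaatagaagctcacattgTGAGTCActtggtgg
Cxcl12: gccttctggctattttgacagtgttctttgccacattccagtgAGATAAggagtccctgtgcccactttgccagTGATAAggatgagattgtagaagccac

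The WT-specific region in an intron of Tyro3 (chr2:119641552-119641652) is shown because Tyro3 is a receptor for dying cells, and it held none of the 4 motif classes in the 101 bases. The WT-specific regions nearest Maml3 (chr3:51978413-51978513, intron) and Prkcq (chr2:11336506-11336606, intergenic) are shown because they held 2 of the 4 direct repeats found in the whole set.
Tyro3: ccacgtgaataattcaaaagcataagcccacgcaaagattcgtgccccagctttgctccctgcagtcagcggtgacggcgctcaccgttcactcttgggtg
Maml3: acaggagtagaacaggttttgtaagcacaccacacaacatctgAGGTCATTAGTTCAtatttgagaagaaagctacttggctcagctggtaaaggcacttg
Prkcq: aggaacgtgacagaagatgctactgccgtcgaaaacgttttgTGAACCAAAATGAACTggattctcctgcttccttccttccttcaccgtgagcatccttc

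The cKO-specific examples are the best-ranked with a LIM homeodomain motif. They lie nearest Gpr135 (chr12:72069701-72069801, intergenic), Gm50092 (chr7:24217202-24217302, intergenic), Gli3 (chr13:15851835-15851935, intron) and Asb16 (chr11:102154186-102154286, intron).
Gpr135: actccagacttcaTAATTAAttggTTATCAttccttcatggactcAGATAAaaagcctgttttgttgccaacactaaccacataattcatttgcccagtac
Gm50092: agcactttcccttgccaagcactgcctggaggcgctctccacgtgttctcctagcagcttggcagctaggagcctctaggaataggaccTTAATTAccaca
Gli3: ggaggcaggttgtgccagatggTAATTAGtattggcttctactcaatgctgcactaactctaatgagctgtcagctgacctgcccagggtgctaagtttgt
Asb16: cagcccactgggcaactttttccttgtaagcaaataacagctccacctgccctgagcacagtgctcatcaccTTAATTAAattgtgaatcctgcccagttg

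Before any difference is read, the libraries themselves differed in several ways. The cKO libraries held 41473, 55933 and 109886 called peaks, against 43931, 101334, 58894 and 76402 in the WT libraries. The number of fragments, estimated from the background that the peak caller used, was 22300000, 7630000 and 64200000 in the cKO libraries and 16200000, 47600000, 20300000 and 23600000 in the WT libraries. Median widths of listed peaks were 283, 146 and 385 bp in the cKO libraries and 160, 717, 492 and 312 bp in the WT libraries. Neither measure separated the genotypes, but cKO 2 and WT 1 were the shallowest libraries with the narrowest peaks. Fold enrichment, the height of a summit over the local background, also differed in scale. Its median over listed peaks was 5.96, 7.78 and 11.6 in the cKO libraries and 6.71, 11.5, 6.8 and 8.06 in the WT libraries. Fold enrichments below are as deposited, so values of different libraries are not on 1 scale. Only the log2 values of shared regions were normalised between libraries.

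The peak names stored inside the files carry tags that the labels do not explain. All 3 cKO libraries and WT 1 carry P42, and WT 2, WT 3 and WT 4 carry P37. The stored name of cKO 3 also reads mouse 2 and Phago, while that of cKO 2 reads mouse 2 and NonPhago and those of the other 5 libraries read NonPhago, so cKO 2 and cKO 3 may come from 1 animal and differ by a sort. The tests of motif and promoter shares and of shared regions were therefore repeated with their values averaged as 1 library, an alternative chosen after seeing the data. Genotype and tag can be told apart only through WT 1.

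WT 1 stood closer to the cKO libraries than to the other WT libraries. Spearman's rho of fold enrichment, the height of a peak's summit over the local background of its library, was computed over the 16473 regions that all 7 libraries shared. For WT 1 it was 0.74, 0.55 and 0.63 with cKO 1, 2 and 3, and 0.34, 0.48 and 0.49 with WT 2, 3 and 4. WT 2, 3 and 4 had a rho of 0.71 to 0.75 with each other, and the cKO libraries 0.49 to 0.68 with each other. These correlations run across regions, which are not independent, and are given as a description. The main comparisons are therefore given with and without WT 1.

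**Figure D1:**
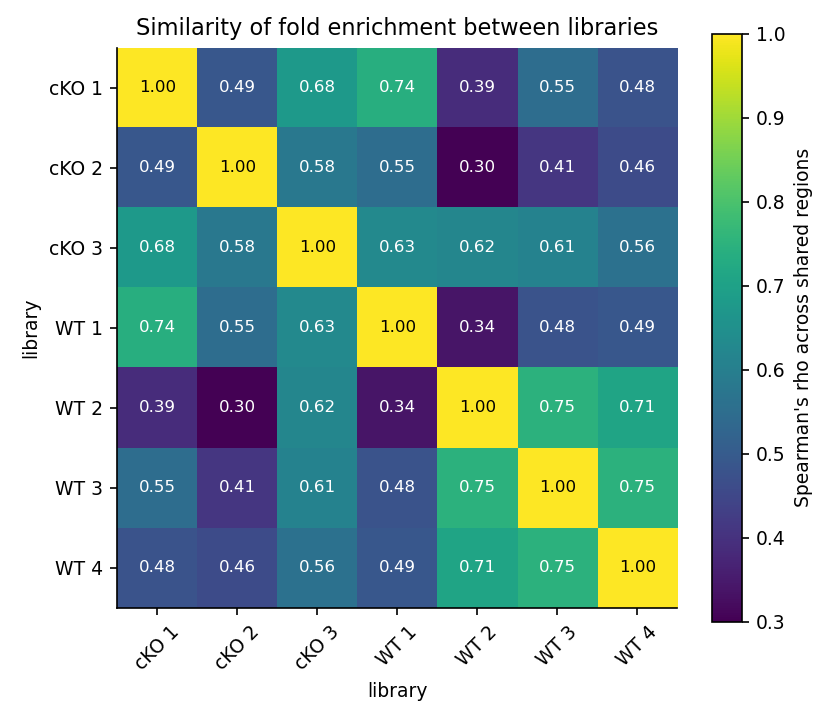
Heat map of Spearman's rho of fold enrichment between each pair of the 7 libraries across the 16473 shared regions. WT 2, 3 and 4 form a block at 0.71 to 0.75, and WT 1 has its highest value, 0.74, with cKO 1.

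Most promoters of markers of the labelled cell type were accessible in the sorted cells. Of 10 promoters of HFSC and basal keratinocyte markers, 10, 8 and 10 had a listed peak in the cKO libraries and 10, 8, 9 and 9 in the WT libraries. The keratin genes Krt5, Krt14 and Krt15 and the HFSC factors Sox9 and Lhx2 were among them in all 7. The promoter of the HFSC marker Cd34 had a listed peak only in cKO 1, cKO 3 and WT 1. That of Col17a1 had none in cKO 2 and WT 2. Of 10 immune markers 0, 1 and 1 had a promoter peak in the cKO libraries and 0, 1, 1 and 1 in the WT libraries, always Cd68, and Ptprc, which encodes CD45, had none. Melanocyte markers with a promoter peak numbered 2, 3 and 2 of 9 in the cKO libraries and 2, 2, 2 and 1 in the WT libraries. Fibroblast markers numbered 2, 0 and 1 of 8 in the cKO libraries and 2 each in the WT libraries, and endothelial markers 1 in each cKO library and 1, 1, 0 and 0 of 8 in the WT libraries. Sebaceous and upper follicle markers numbered 4, 3 and 3 of 9 in the cKO libraries and 4, 5, 5 and 5 in the WT libraries, and the Sca1 gate was set to remove upper follicle cells. The part of any that remained in the results was not tested.

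Rxra itself stayed accessible in the cKO libraries. Its gene lies at chr2:27566452-27653330 on the plus strand with 10 exons, and 14 regions fell in or beside it, of which 6 were shared by all 7 libraries and 0 were specific to a genotype. Listed peaks there numbered 9, 6 and 10 in the cKO libraries and 9, 10, 13 and 10 in the WT libraries. The promoter region over exon 1 (chr2:27566122-27567865) had a fold enrichment of 6.13, 4.04 and 9.07 in the cKO libraries, the second of these below the list, against 7.1, 6.24, 5.17 and 4.96 in the WT libraries. The highest promoter peak, at a start site within intron 1 (chr2:27611425-27612150), reached 10.1, 11.4 and 15.4 in the cKO libraries and 10, 8.46, 9.09 and 7.57 in the WT libraries. The sources used here do not say which exon the floxed allele removes, and peak calls do not count reads over single exons, so these values do not check the deletion.

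An intronic region of Rxra (chr2:27605268-27605794) had a listed peak in WT 2, 3 and 4, at 5.36, 5.58 and 4.98, and no called peak in any cKO library or in WT 1. It was singled out after its values were seen, as a region that follows the tag and not the genotype.

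WT-specific regions lay mostly away from promoters. Of the 756, 329 (43.5%) were in introns, 332 (43.9%) between genes, 68 (8.99%) within 1 kb of a transcription start, 18 in non-coding exons and 9 in coding exons. Of the 272 cKO-specific regions, 117 (43%) were in introns, 135 (49.6%) between genes, 11 (4.04%) at promoters, 5 in non-coding exons and 4 in coding exons. Among all callable regions 29.2% were at promoters, which is the background for both shares. The median distance to the nearest transcription start was 32174 bp for cKO-specific regions and 16779 bp for WT-specific regions, against 11450 bp for callable regions.

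Motif frequencies differed between the 2 sets in a description without a test. Within 100 bp of the summit an AP-1 motif was present in 9.19% of cKO-specific regions and 29.9% of WT-specific regions, against 17.8% of callable regions. A GATA motif was present in 16.2% of cKO-specific and 24.7% of WT-specific regions, against 13.9% of callable regions. A LIM homeodomain motif, the class bound by the HFSC factor LHX2, was present in 16.5% of cKO-specific and 3.97% of WT-specific regions, against 4.49% of callable regions. With promoters left out, the AP-1 shares were 9.58% of cKO-specific and 30.5% of WT-specific regions against 23% of callable regions. The GATA shares were then 16.9% and 26.2% against 17.9%, so the cKO-specific share was no longer above callable regions. The LIM homeodomain shares were 16.9% and 3.78% against 5.94%. The single half-site of nuclear receptors was nearly as frequent in each set, at 30.5% of cKO-specific, 31.5% of WT-specific and 28.3% of callable regions.

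Direct repeats of the half-site, the form that RXR pairs bind, were rare. They were found in 0 of 272 cKO-specific and 4 of 756 WT-specific regions, and in 105 of 40906 callable regions (0.257%). DR2, with 2 bases between the repeats, was found in 0 cKO-specific regions and in the 1 WT-specific region shown for Maml3, against 12 callable regions. The windows hold exact matches only, so a missing match says only that these letters are absent there.

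Tested over libraries, the same measures did not separate the genotypes after adjustment. Promoters took 28.5, 25.8 and 29.5% of listed peaks in the cKO libraries and 30.3, 30.3, 29.9 and 30.5% in the WT libraries. The means were 27.9% ± 1.95 in cKO and 30.2% ± 0.246 in WT (SD, n = 3 and 4), a difference of -2.31 points (exact permutation test, two-sided, p = 0.0286, the smallest that 3 against 4 allows, adjusted p = 0.171 over 6 measures). All 3 cKO libraries lay below all 4 WT libraries, WT 1 included. Without WT 1 the difference was -2.3 points, at the smallest p that 3 against 3 allows (exact permutation test, p = 0.1). With cKO 2 and cKO 3 averaged as 1 library it was -2.17 points, at the smallest p that 2 against 4 allows (exact permutation test, p = 0.0667, adjusted p = 0.4). With all called peaks in place of equal lists it was -1.05 points (exact permutation test, p = 0.657, adjusted p = 0.657).

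AP-1 motifs were found at 10.8, 16.7 and 15.8% of listed peaks in the cKO libraries and 14.1, 19.9, 16.8 and 18.1% in the WT libraries, and the groups overlapped (difference -2.77 points, exact permutation test, p = 0.257, adjusted p = 0.429). Without WT 1 the difference was -3.82 points (exact permutation test, p = 0.1, the smallest possible), and against WT 1 alone it was 0.392 points, the other way. LIM homeodomain motifs were found at 3.77, 7.91 and 6.15% in the cKO libraries and 4.15, 3.22, 4.08 and 3.77% in the WT libraries. Only cKO 2 and cKO 3, possibly 1 animal, lay above the WT libraries, while cKO 1 lay among them (difference 2.14 points, exact permutation test, p = 0.114, adjusted p = 0.343). With these libraries averaged as 1 the difference was 1.6 points (exact permutation test, p = 0.267, adjusted p = 0.4). GATA motifs were found at 15.4, 15.4 and 11.5% in the cKO libraries and 14.3, 14, 15.9 and 15.5% in the WT libraries (exact permutation test, p = 0.657, adjusted p = 0.789). Direct repeats were found at 0.172, 0.271 and 0.269% in the cKO libraries and 0.223, 0.259, 0.269 and 0.247% in the WT libraries (exact permutation test, p = 0.8, adjusted p = 0.8). The DR2 share was 0.0145, 0.046 and 0.0315% in the cKO libraries and 0.0266, 0.0436, 0.0484 and 0.0532% in the WT libraries (exact permutation test, p = 0.286, adjusted p = 0.429). A library held few DR2 matches, so a difference in them was hard to see at this depth.

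With the P42 libraries alone, the 3 cKO libraries against WT 1, cKO-specific regions numbered 1617 and WT-specific regions 6168. Callable regions, here with a listed peak in any of these libraries, numbered 71969. A WT-specific region then needed a listed peak in WT 1 alone, while a cKO-specific region still needed all 3 cKO libraries. The gap between these counts follows in part from that rule. A missing listed peak was often a weaker one: in the 756 WT-specific regions 0, 112 and 544 had a called peak below the list in cKO 1, 2 and 3, and 207 (27.4%) had no called peak in any cKO library. In the 272 cKO-specific regions 12, 236, 99 and 125 had a called peak below the list in WT 1, 2, 3 and 4, and 32 (11.8%) had none in any WT library. The length of the lists was set by cKO 1, which had no called peak beyond it, so its 0 was fixed in advance. The 207 regions were therefore sorted out by cKO 2 and cKO 3 alone. WT 1 had few called peaks beyond the list. Absences in cKO 1 and WT 1 and those in deeper libraries do not weigh alike.

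Repeated sequence touched the cKO-specific set more often. Of its 272 regions, 24 (8.82%) had under 50% of their 25-base words found once in the genome, against 4 of the 756 WT-specific regions (0.529%). The best-ranked cKO-specific region, nearest Sfswap, had 0% of its words found once, and the second, nearest Gpr31b, had 4.65%, so the position of their reads is uncertain.

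The 3 best-ranked WT-specific regions lay near Hagh, Sptbn5 and Cxcl12. The region nearest Hagh, which encodes a glyoxalase, had a fold enrichment of 5.54 in cKO 3 alone, below the list, against 8.88, 12.8, 8.43 and 13 in the WT libraries. The region nearest Sptbn5, a spectrin gene, had 5.29 in cKO 3 alone, below the list, against 7.89, 20.8, 11.8 and 14.9 in the WT libraries. The region nearest Cxcl12, a chemokine gene whose start lies 222070 bp away, had no called peak in any cKO library, against 6.85, 16.5, 11.4 and 14.4 in the WT libraries. These WT peaks rested on 10, 166, 34 and 40 fragments at the summit for the Cxcl12 region, and the fewest were in WT 1.

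Among promoters the best-ranked WT-specific regions belonged to Atp9a, a phospholipid flippase gene, Cx3cl1, Agpat3, Hbq1b and Adarb1. Cx3cl1 encodes fractalkine, a chemokine that dying cells release to attract phagocytes. Its promoter (chr8:95498595-95499312) had no called peak in cKO 1 and 4.14 and 5.74, below the list, in cKO 2 and cKO 3, against 8.79, 8.47, 6.6 and 8.33 in the WT libraries. The Atp9a promoter (chr2:168583995-168584700) had 4.65 in cKO 3 alone, against 7.36, 9.72, 8.25 and 9.46 in the WT libraries.

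Only Atrnl1 and Dipk1a had 3 WT-specific regions in their windows, which took in the gene body with 50 kb upstream and 5 kb downstream, and no gene had 3 cKO-specific regions. Atrnl1 is a large gene, and its window held as many listed peaks in one genotype as in the other, 8, 7 and 6 in the cKO libraries and 9, 6, 8 and 7 in the WT libraries. The Dipk1a window held 9, 8 and 9 in the cKO libraries and 14, 12, 12 and 14 in the WT libraries. These counts include the 3 WT-specific regions by which the gene was chosen, so the gap follows in part from that choice.

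Of 355 genes in 24 lists of pathways and cell types, 28 (7.89%) had a WT-specific region in the window and 7 (1.97%) a cKO-specific region, against 4.6% and 1.38% of all 21738 protein-coding genes. Per callable region this was 1.78% WT-specific and 0.39% cKO-specific, against 1.63% and 0.483% over the windows of all genes, so by region the lists as a whole stood near the background.

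The list of retinoid receptors, carriers and co-regulators had WT-specific regions at 2 of 15 genes (13.3%, against 4.6% of all genes) and cKO-specific regions at 0 (1.38% of all genes). Of its 93 callable regions, 3 were WT-specific (3.23%, against 1.63% over the windows of all genes). Rara, a retinoic acid receptor, had 1 in a coding exon (chr11:98858784-98859346), with 5.81 in cKO 3 alone, below the list, against 6.47, 8.98, 6.66 and 6.91 in the WT libraries, and 1 near Cdc6 in its window. Rarg, the retinoic acid receptor gene of epidermis, had none, and its highest promoter peak reached 8.4, 8.49 and 11.2 in the cKO libraries and 8.07, 9.02, 8.01 and 7.6 in the WT libraries. The median over the list of the change in listed peaks per window was -0.75, against 0 over all genes.

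Of 15 genes of retinoid uptake, synthesis and breakdown, 3 had a WT-specific region (20%, against 4.6% of all genes) and 1 a cKO-specific region (6.67%, against 1.38%). Of their 45 callable regions, 3 were WT-specific (6.67%, against 1.63% over the windows of all genes) and 1 cKO-specific (2.22%, against 0.483%). Dhrs9, which encodes a dehydrogenase of retinol and steroids, had 1 of each. Its WT-specific region (chr2:69179593-69180488), whose nearest start is that of Abcb11, had no called peak in any cKO library, against 7.47, 17.2, 9.84 and 11.1 in the WT libraries. Its cKO-specific region (chr2:69195266-69196070) had 4.9, 8.65 and 13.3 in the cKO libraries and a called peak only in WT 2, of 6.62 and below the list. The other 2 were Stra6, the receptor for retinol uptake, and Rdh11, a retinal reductase, the second without any called peak in the cKO libraries.

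Receptors for dying cells had a WT-specific region at 1 of 18 genes, Tyro3, and a cKO-specific region at 0. This share of 5.56% was near the 4.6% of all genes, and per callable region the list held 1.22%, against 1.63%. TYRO3 is a TAM receptor that binds dying cells through the bridging proteins GAS6 and PROS1. Its intronic region (chr2:119641369-119641821) had no called peak in cKO 1 and cKO 2 and 4.57 in cKO 3, below the list, against 4.98, 13.7, 5.46 and 7.65 in the WT libraries. It ranked 598 of 756, and in WT 1 it rested on 7 fragments.

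Listed peaks in the Tyro3 window, with the chosen intronic region included, numbered 3, 2 and 2 in the cKO libraries and 5, 5, 6 and 3 in the WT libraries. A shared region about 10 kb upstream of the gene (chr2:119617693-119618529) had a quantile-normalised log2 fold enrichment of 2.5, 2.74 and 3.57 in the cKO libraries and 3.69, 4.01, 3.76 and 4.01 in the WT libraries. On this scale the groups did not overlap, with cKO 3 nearest to WT, and the cKO mean lay 0.76 below WT 1. The difference was -0.93 ± 0.24 (SE, limma, adjusted p = 0.167), so it did not pass the test. Before normalisation its fold enrichment was 4.59, 6.29 and 18 in the cKO libraries and 11.8, 19.4, 10.7 and 14.5 in the WT libraries, and the groups overlapped. The peak just downstream of the gene overlapped too, with an unnormalised fold enrichment of 11.8, 10.2 and 15.1 in the cKO libraries and 10.6, 14, 8.23 and 8.32 in the WT libraries.

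**Figure D2:**
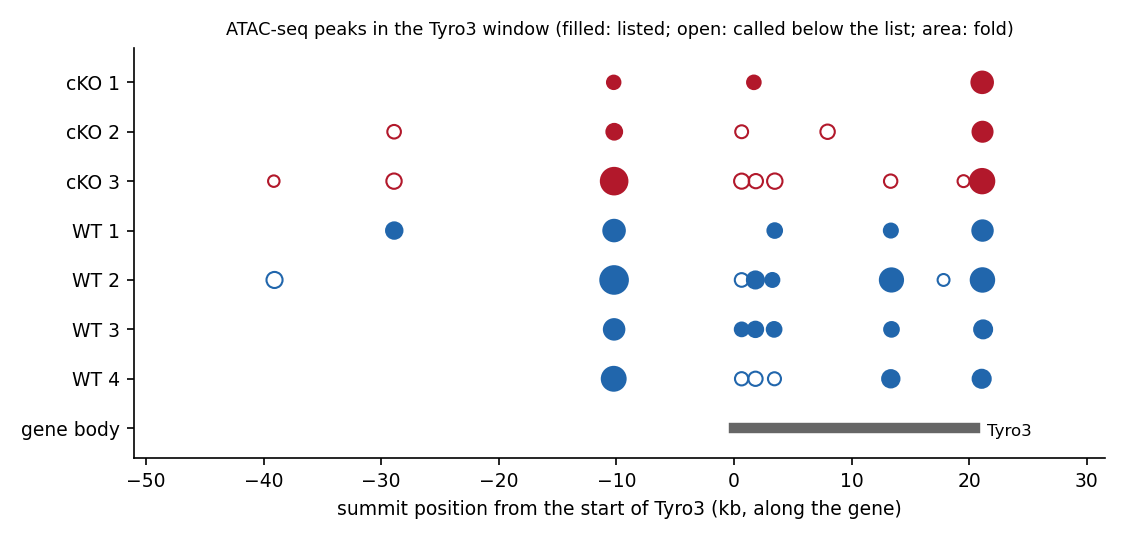
Peaks of each of the 7 libraries along the Tyro3 window, by distance of the summit from the start of the gene, with filled circles for listed peaks, open circles for peaks called below the list and circle area for fold enrichment. The intronic peak about 13 kb into the gene was listed in all 4 WT libraries and was called, below the list, in cKO 3 alone.

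The promoters of the other TAM receptors had fold enrichments that overlapped between the genotypes as deposited. They were not normalised between libraries, so the overlap does not show whether the genotypes separate. The highest promoter peak of Mertk reached 7.64, 10.2 and 16.9 in the cKO libraries and 9.34, 10.3, 6.6 and 8.8 in the WT libraries. That of Axl reached 3.97 and 7.99 in cKO 1 and cKO 3, with none listed in cKO 2, and 8.99, 4.79 and 8.35 in WT 2, 3 and 4, with none listed in WT 1. Gas6, a ligand of all TAM receptors, had 6, 5 and 7 listed peaks in its window in the cKO libraries and 4, 3, 5 and 3 in the WT libraries, and Mfge8, which bridges dying cells to integrins, had 3, 4 and 4 in the cKO libraries and 3 in each WT library. Of 33 shared regions at receptors for dying cells, 5 (15.2%) were lower at an unadjusted p under 0.05 and 0 higher, against 6.06% lower and 4.04% higher over the windows of all genes, and none passed after adjustment.

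Of 94 genes in 5 lists of clearance (receptors, bridging proteins, phagocytic cup, phagosome maturation and lysosome), 8 (8.51%) had WT-specific regions and 0 had cKO-specific regions, against 4.6% and 1.38% of all genes. These were 9 of 462 callable regions (1.95%), near the 1.63% of all genes, and the 5 lists hold 14 shared regions lower and 10 higher of 202 at an unadjusted p under 0.05, which is 6.93% and 4.95%. The phagocytic cup held Rac1 (2 regions), a GTPase that drives actin at the cup, Vav3, which activates such GTPases, and Wasf2, a subunit of the actin-nucleating WAVE complex. Phagosome maturation held Rab5c, of early endosomes, and Rab17, of epithelial trafficking, and the lysosome held Atp6v1h, a proton pump subunit, and Scarb2, a lysosomal membrane receptor.

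Rac1 had peaks of opposite sign side by side, of which the first was chosen by where it was listed and the second did not pass the test. A WT-specific region 529 bp from its start (chr5:143514743-143515207) had 5.36 and 4.26 in cKO 2 and cKO 3, below the list, against 4.78, 7.02, 5.02 and 6.8 in the WT libraries. The shared region at its start (chr5:143513454-143514445) had a log2 fold enrichment of 3.65, 3.34 and 3.55 in the cKO libraries and 3.65, 2.71, 2.75 and 2.7 in the WT libraries, so that WT 1 equalled the highest cKO library and the difference was 0.56 (limma, adjusted p = 0.463). The WT-specific region at Atp6v1h is the intronic region nearest Rgs20, whose printed sequence holds 2 AP-1 motifs. It had no called peak in any cKO library, against 7.71, 8.14, 6.16 and 10.1 in the WT libraries.

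Genes of lipid handling, a class that RXR pairs control, had WT-specific regions at 2 of 19 (10.5%, against 4.6% of all genes) and cKO-specific regions at 0 (1.38% of all genes). Of their 101 callable regions, 3 were WT-specific (2.97%, against 1.63% over the windows of all genes). Acsl1, which activates long-chain fatty acids, had 2, of which 1 at its promoter had 5.27 in cKO 3 alone, below the list, against 5.51, 8.91, 5.54 and 5.52 in the WT libraries. Apoe, a carrier of lipids and a target of liver X receptors, had 1 at the promoter of its neighbour Apoc1.

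GATA and epidermal factors had WT-specific regions at 3 of 16 genes (18.8%, against 4.6% of all genes) and cKO-specific regions at 0 (1.38% of all genes). Grhl1, a grainyhead factor of epidermal adhesion, had 2. The first (chr12:24615351-24616138) had no called peak in any cKO library, against 7.45, 14.7, 8 and 11.7 in the WT libraries. Trp63, the master factor of basal keratinocytes, had 1 with no called peak in any cKO library, against 5.6, 19.1, 7.2 and 10.2 in the WT libraries. Its window, with this chosen region included, held 8, 7 and 8 listed peaks in the cKO libraries and 11, 16, 12 and 13 in the WT libraries. Over the list 4.71% of callable regions were WT-specific, against 1.63% over all genes, and the median change in peaks per window was -1.17, against 0.

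The HFSC identity list held both sets, with WT-specific regions at 3 of 20 genes (15%, against 4.6% of all genes) and cKO-specific regions at 2 (10%, against 1.38%). Nfatc1 and Tcf7l1, which keep HFSCs quiescent or undifferentiated, and Klf5 were the first, and Tcf7l2, an effector of WNT signalling, and Ltbp2 were the second. The Tcf7l1 window, with its chosen WT-specific region included, held 9, 10 and 10 listed peaks in the cKO libraries and 13, 14, 14 and 12 in the WT libraries. The promoter of the HFSC factor Sox9 had a fold enrichment of 9.7, 15.4 and 20.7 in the cKO libraries. In the WT libraries it had 9.25, 9.99, 8.91 and 9.72, and 1 cKO value lay within this range. The values were not normalised between libraries, so they do not show whether the genotypes separate.

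Inflammatory genes had WT-specific regions at 3 of 18 (16.7%, against 4.6% of all genes) and cKO-specific regions at 0 (1.38% of all genes). The genes with WT-specific regions were Cx3cl1, Il33, an alarmin of epithelia, and Il18, an epithelial cytokine. Of the list's 80 callable regions, 3 were WT-specific (3.75%, against 1.63% over the windows of all genes). The Il33 region, 12950 bp from its start, had 4.09 in cKO 3 alone, below the list, against 8.09, 25.2, 8.4 and 9.22 in the WT libraries. The Il18 region had no called peak in any cKO library, against 6.22, 17.2, 8 and 8.74 in the WT libraries. Lama3 and Cdh1 of the adhesion list, Fos of the AP-1 list and Lmo1 of the LIM list also had a WT-specific region. The lists of stress and wound response, epidermal differentiation, bridging proteins and WNT, BMP, TGF-β and SHH signalling held no region of either set.

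Among the list genes with a cKO-specific region, Bmf encodes a BH3-only activator of cell death. Its region (chr2:118384892-118385610), 5211 bp from a start, had 4.82, 12.2 and 15.6 in the cKO libraries and a called peak only in WT 2, of 4.28 and below the list. The Bmf window, with this chosen region included, held 5, 9 and 9 listed peaks in the cKO libraries and 3, 5, 3 and 4 in the WT libraries. A shared region in the same window (chr2:118428374-118429038) had the opposite sign, at a log2 fold enrichment of 3.84, 3.31 and 3.8 in the cKO libraries and 3.48, 4.84, 4.43 and 4.3 in the WT libraries, with WT 1 among the cKO libraries, and did not pass (-0.61, limma, adjusted p = 0.369).

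The best-ranked cKO-specific region with no called peak in any WT library lay 60548 bp from Clmp, a cell adhesion gene, at chr9:40536230-40536566. It had 5.42, 13.7 and 15.9 in the cKO libraries, which rested on 12, 18 and 79 fragments. The best-ranked promoters in the set belonged to Vmn1r87, Angptl7, Lrrc72, Rabgap1l and Wwp1, and each of them had a called peak below the list in WT 2. The promoter of Angptl7, an angiopoietin-like gene, had 4.19, 6.87 and 10.8 in the cKO libraries, against 5.25 in WT 2 alone. The remaining list genes were Lmo4, a LIM-only cofactor, Itgb6, an epithelial integrin that activates TGF-β, and Lrig1, a marker of upper follicle stem cells.

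Heights of shared regions were then compared across the 16473 regions with a listed peak in all 7 libraries, with limma on the quantile-normalised log2 fold enrichment and Benjamini-Hochberg adjustment. At an adjusted p under 0.05, 0 regions were higher (0%) and 1 was lower (0.00607%) in cKO. At an unadjusted p under 0.05, limma gave 676 higher (4.1%) and 982 lower (5.96%). The median absolute difference over all regions was 0.189 with a median SE of 0.234.

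The single region that passed lay 456784 bp from Myom2, the nearest gene, at chr8:15569777-15570124. It had 4.79, 4.45 and 4.51 in the cKO libraries and 4.95, 5.39, 5.45 and 5.49 in the WT libraries, a difference of -0.74 ± 0.12 (SE, limma, adjusted p = 0.0208). Only 7.1% of its 25-base words occur once in the genome, so its reads cannot be placed with confidence, and with the tag as a second term in limma the difference was -0.37 and did not pass. With cKO 2 and cKO 3 averaged as 1 library it was -0.68 and did not pass either (limma, adjusted p = 0.138), so that 0 regions passed.

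The other regions with the smallest p in each direction are given as values, since none passed. The promoter of Gstp1 (chr19:4087663-4088274), a glutathione transferase, had 2.99, 2.92 and 3.33 in the cKO libraries and 3.6, 4.42, 4.25 and 4.51 in the WT libraries. The groups did not overlap, WT 1 was the WT library nearest to cKO, and the difference was -1.12 ± 0.22 (SE, limma, adjusted p = 0.0893). An intergenic region nearest Zwint, a kinetochore gene, differed by -1.26 ± 0.26, an intergenic region nearest Fabp7, a fatty acid-binding protein gene, by -1.19 ± 0.25 and an intronic region nearest Pebp4 by -1.18 ± 0.24 (SE, limma, adjusted p = 0.106 each).

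In the other direction the promoter of Bmp7 (chr2:172781655-172782653), a bone morphogenetic protein gene, had 4.46, 4.18 and 3.63 in the cKO libraries and 2.36, 2.9, 3.2 and 3.59 in the WT libraries. It differed by 1.08 ± 0.26 (SE, limma, adjusted p = 0.167), and here WT 1 was the WT library farthest from cKO, 1.73 below the cKO mean. The promoter of Ndst1, an enzyme of heparan sulfate synthesis, had 3.45, 3.76 and 3.08 in the cKO libraries and 2.66, 2.55, 2.21 and 2.52 in the WT libraries (0.95 ± 0.24, limma, adjusted p = 0.167). Regions nearest Fam177a, Ptchd3 and Zfp119b differed by 0.78 ± 0.18, 0.8 ± 0.19 and 0.73 ± 0.18 (SE, limma, adjusted p = 0.167 each). The first 2 of these lie in repeated sequence, with 0% and 8.82% of their words found once.

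**Figure D3:**
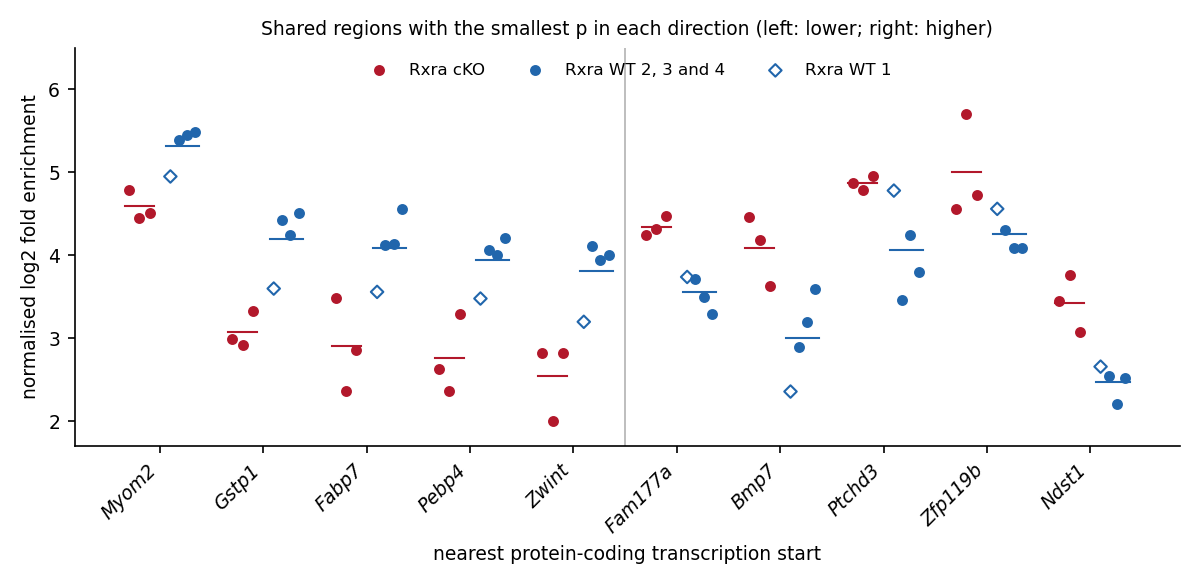
Log2 fold enrichment (y axis) of the 5 shared regions with the smallest p in each direction, lower in cKO on the left and higher on the right, with 1 point per library and WT 1 marked apart from the other WT libraries. At the Gstp1 promoter the 3 cKO points lie between 2.92 and 3.33 and the WT points between 3.6 and 4.51, and at the Bmp7 promoter the cKO points lie between 3.63 and 4.46 and the WT points between 2.36 and 3.59.

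With WT 1 left out, limma called 217 shared regions higher and 375 lower in cKO at an adjusted p under 0.05, against 0 and 1 with all 7 libraries. WT 1, which took no part in these calls, was nearer to the cKO mean than to the mean of WT 2, 3 and 4 in 205 of the 217 higher regions (94.5%) and in 309 of the 375 lower regions (82.4%), against 65.7% over all 16473 shared regions. In the higher regions the median difference was 0.83 for cKO against WT 2 to 4, 0.83 for WT 1 against WT 2 to 4 and 0.02 for cKO against WT 1. In the lower regions these medians were -0.87, -0.75 and -0.15. So at most of these regions the WT library that shares the tag of the cKO libraries sat with them, and genotype and tag cannot be told apart there.

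**Figure D4:**
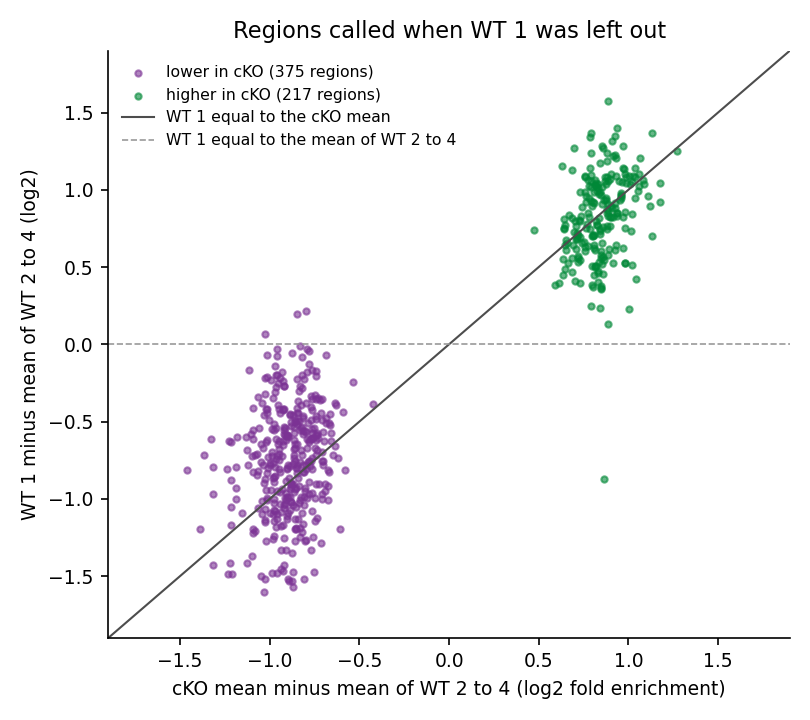
For each of the 592 regions called without WT 1, the cKO mean minus the mean of WT 2 to 4 (x axis) is set against WT 1 minus the mean of WT 2 to 4 (y axis), both in log2 fold enrichment. A WT library placed like its genotype would lie near 0 on the y axis, and the medians there were 0.83 for the 217 higher and -0.75 for the 375 lower regions.

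These regions included genes of the lists, named after their values were seen. Promoters accounted for 158 (72.8%) of the higher regions and 148 (39.5%) of the lower ones. The Rara promoter had 3.53, 3.62 and 3.15 in the cKO libraries and 3.38, 2.37, 2.63 and 2.82 in the WT libraries, with a difference of 0.82 without WT 1 (limma, adjusted p = 0.0474) and 0.63 with it (adjusted p = 0.414). The promoter of Atf3, a stress-induced partner of AP-1, had 3.39, 3.22 and 2.89 in the cKO libraries and 3.85, 2.39, 2.24 and 2.2 in the WT libraries, with WT 1 above all cKO libraries. The promoters of Il6st, Ppard, Klf4, Apoe and Rac1 were higher in the same way, and in each of them WT 1 lay above all of WT 2 to 4.

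Among the lower regions, a region 6740 bp from a start of Nfkb1, an inflammatory transcription factor, had 2.63, 3.09 and 2.73 in the cKO libraries and 2.69, 4.02, 4.04 and 3.46 in the WT libraries, with WT 1 within the cKO range. Tgfb2, which drives catagen and activates HFSCs, was of the other kind. Its region (chr1:186341949-186342683) had 3.18, 3.11 and 3.08 in the cKO libraries and 3.78, 4.06, 3.77 and 3.88 in the WT libraries, so that WT 1 lay with WT 2 to 4, and the difference was -0.76 without WT 1 (limma, adjusted p = 0.0329) and -0.75 with it (adjusted p = 0.209). A region 10352 bp from the start of Uvrag, which acts in autophagy and phagosome maturation, was like it, with 3.87, 4.07 and 3.34 in the cKO libraries and 4.37, 4.43, 4.18 and 4.72 in the WT libraries (-0.67 without WT 1, adjusted p = 0.043, and -0.67 with it, limma, adjusted p = 0.188).

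Further shared regions at list genes had an unadjusted p under 0.01 in limma, but none passed after adjustment. Values below WT were found near Aldh1a3, a retinoic acid synthase (-0.78), Jmjd6 (-0.75), Stat3 (-0.73), Jund (-0.66) and Pmaip1, a BH3-only gene (-0.65). Values above WT were found near Grhl3 (0.73), Wnt7b (0.73), Plet1, an upper follicle marker (0.74), and Atp6v1a (0.5). Adjusted p in limma lay between 0.279 and 0.347 for these 9, and a region at the immune factor gene Spi1 had -0.76 (limma, adjusted p = 0.247). At Jmjd6, Jund, Pmaip1 and Grhl3 the cKO mean differed from WT 1 by -0.54, -0.61, -0.49 and 0.92, and at Aldh1a3 and Stat3 by 0.12 and 0.02, so the last 2 were carried by WT 2 to 4.

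Libraries whose peaks were not used to choose the regions were then examined. These were 6 CatVII and 2 AnaVI wild type libraries of the same series, AnaVI being a stage of the growth phase. Both sets were chosen by listing in all or none of the Rxra WT libraries, which are of the stage CatVII as well. The CatVII values, and the tested differences from AnaVI, therefore follow in part from that choice. The CatVII libraries carry the tag P37, and the stored names of WT 2 to 4 continue their numbering, while the AnaVI libraries carry P33. CatVII 1 to 3 also carry Phago, CatVII 4 to 6 NonPhago and both AnaVI libraries HFSC, so stage and stored tags cannot be told apart. With every list cut to 8223 peaks, cKO-specific regions had a listed peak in 0 to 0.368% of cases in the CatVII libraries and in 6.62 and 2.57% in the AnaVI libraries. The means were 0.123% in CatVII and 4.6% in AnaVI (n = 6 and 2), a difference of -4.47 points (exact permutation test, two-sided, p = 0.0357, the smallest that 6 against 2 allows, adjusted p = 0.143 over 4 measures). Callable regions as a whole had means of 18.3% in CatVII and 18.1% in AnaVI. The size of the difference followed the length of the lists, at -1.23 points with lists 2 times shorter and -38.7 points with all called peaks, where callable regions also differed by -10.9 points.

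WT-specific regions had a listed peak in 0.926 to 7.28% of cases in the CatVII libraries, with a mean of 3.04%, and in 0.794 and 0.529% in the AnaVI libraries, with a mean of 0.661% (difference 2.38 points, exact permutation test, p = 0.143, adjusted p = 0.19). It was 0.485 points with lists 2 times shorter and 6.64 points with all called peaks. By sort tag the CatVII values were 0.926, 0.926 and 3.31% in the Phago libraries and 1.85, 3.97 and 7.28% in the NonPhago libraries. The comparison between the deepest libraries of each stage, which had 51979 called peaks in CatVII and 52325 in AnaVI, used all called peaks. There, 77 of 272 cKO-specific regions (28.3%) had a peak in CatVII and 201 (73.9%) in AnaVI, against 539 of 756 WT-specific regions (71.3%) in CatVII and 208 (27.5%) in AnaVI. Callable regions had a peak in 81.9% of cases in CatVII and 74.3% in AnaVI. In this pair, with 1 library of each stage and no test, cKO-specific regions had peaks more often in AnaVI and WT-specific regions more often in CatVII. Against callable regions, the cKO-specific share was near in AnaVI (73.9 against 74.3%) and lower in CatVII (28.3 against 81.9%). The WT-specific share was lower than that of callable regions in both. The shortest called peaks were 126 to 150 bp in the CatVII libraries and 58 and 89 bp in the AnaVI libraries, and 62 to 117 bp in the cKO libraries and 70 to 138 bp in the WT libraries, and the part of this difference in fragment length was not tested.

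**Figure D5:**
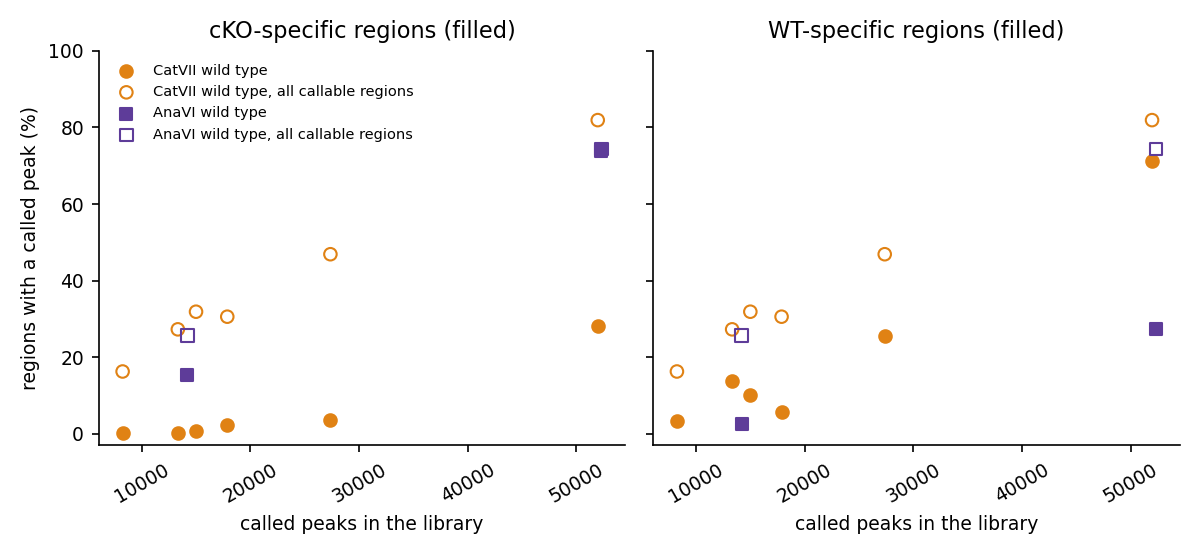
Percent of cKO-specific and WT-specific regions (filled) and of all callable regions (open) with any called peak in each of 6 CatVII and 2 AnaVI wild type libraries (y axis), against the number of called peaks in the library (x axis). Among the deepest libraries, 28.3% of cKO-specific regions had a peak in CatVII and 73.9% in AnaVI, and 71.3% of WT-specific regions had a peak in CatVII and 27.5% in AnaVI. Callable regions had a peak in 81.9% of cases in CatVII and 74.3% in AnaVI.

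In cultured HFSCs given dead cells, 3 Rxra cKO and 4 Rxra WT libraries were available, with lists cut to 72047 peaks. WT-specific regions had a listed peak in 45.8, 46 and 50.1% of cases in the cKO cultures and 50.1, 56.3, 59.3 and 55.2% in the WT cultures. The means were 47.3% ± 2.45 in cKO and 55.2% ± 3.81 in WT (SD, n = 3 and 4), a difference of -7.91 points (exact permutation test, two-sided, p = 0.0857, adjusted p = 0.171). With all called peaks, whose numbers differed between libraries, the means were 59.2% in cKO and 60.7% in WT, a difference of -1.58 points (exact permutation test, p = 0.857). The stored names give NonPhago for cKO 1 and 2 and for WT 1 and 2 of these cultures and Phago for cKO 3 and for WT 3 and 4, and the highest cKO value and the highest WT value were both in Phago libraries. Callable regions had means of 65% ± 0.581 in cKO and 67% ± 2.82 in WT. cKO-specific regions had a listed peak in 28.2% ± 2.15 of cases in the cKO cultures and 27.8% ± 2.31 in the WT cultures (exact permutation test, p = 0.914, adjusted p = 0.914), so no difference was detectable with these libraries.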

How the data were processed

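Members and gene lists were chosen with earlier results of these data known. Per the labels and the study's methods, the authors used BWA 0.7.18 to align paired reads to mm39, dropped duplicates and called peaks in each library alone with MACS3 3.0.0 and no control. The deposited values used were the fold enrichment at the summit (a ratio, pileup plus 1 over background plus 1), −log10 p and q, and the summit position. No read counts were used, so peak lists replaced the count model of the study.

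Peaks on chromosomes 1 to 19, X and Y were ranked by −log10 p and cut to equal numbers. Fragments at a summit were solved from fold enrichment and −log10 p, and library size was estimated from background and shortest peak. Genes came from GENCODE for the same build, and motifs were exact matches on both strands within 100 bp of the summit. Shared regions were tested with limma 3.58.1 (R 4.3.3), two-sided, by genotype alone and an adjusted p under 0.05, and library shares with exact permutation tests (SciPy 1.17.1), which were tested on simulated data first. p-values measure the spread between libraries. Groups came from the labels.

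Named were Rxra, the 5 shared regions with the smallest p in each direction where fewer than 5 passed, list genes with a specific region in the window, the genes with most such regions, and the best-ranked regions and promoters. The mouse numbers did not pair the samples. Alternatives were other list lengths, overlap rules, normalisations, heights, covariates and weights, each library left out, and the P42 libraries alone. Further alternatives, on repeated sequence, on peaks below the list and on cKO 2 and cKO 3 as 1 animal, were chosen after seeing the data. Culture libraries without dead cells or with other additions were left out. Some list genes that the rule would name are not reported here.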

Additional observations from a re-analysis of the deposited data

How the results depend on the processing

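Depth limits presence calls. A quantile near the minimum of fragments at listed summits was 6 in cKO 2 and WT 1. It was 33 in cKO 3 and 41 in WT 2, so an unlisted region in a shallow library is not shown to be closed. Regions specific to cKO numbered 164 and to WT 309 with lists 2 times shorter, 1617 and 6168 with the P42 libraries alone, and 32 and 207 where no called peak in the other genotype was allowed. Leaving out 1 library gave 320 to 4167 for cKO (4167 without cKO 1, 616 without cKO 2, 471 without cKO 3, 642 without WT 1) and 900 to 2658 for WT (2470 without cKO 1, 1249 without cKO 3, 2658 without WT 1). The rule is easier to meet with fewer libraries, so these counts are not on 1 footing. The causes were not tested.

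In limma, shared regions higher and lower in cKO (0 and 1) numbered 4 and 0 on summit fragments, 0 and 0 with median centring, with the tag as a second term, with cKO 2 and cKO 3 averaged as 1 library or with absent peaks at the library floor, 180 and 347 with sample weights, where WT 1 had the lowest weight (0.402), and 1 and 1 with the replicate block. Same-numbered libraries had correlations of deviations of 0.21, -0.14 and 0.042, so the block pairs numbers only. Leaving out 1 library gave 0 to 217 higher and 0 to 375 lower, the highest without WT 1, and 2 lower without cKO 1. Over the 10 named shared regions and 149 alternatives, 120 kept their direction and side of the threshold, 21 passed it, 8 lost it (all the region nearest Myom2) and 0 changed direction.

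Differences of shares (cKO minus WT, points) changed sign with the P42 libraries alone for AP-1 (0.392), direct repeats (0.0145) and DR2 (0.00403). With 1 library left out they ran from -3.11 to -1.23 for promoters, -3.89 to -0.958 for AP-1, -1.45 to 0.519 for GATA (0.519 without cKO 3), 1.16 to 3.23 for LIM homeodomain, -0.029 to 0.0206 for direct repeats (0.0206 without cKO 1) and -0.02 to -0.00424 for DR2. In the cultures they ran from -9.57 to -6.57 for WT-specific regions and from -0.46 to 1.56 for cKO-specific regions, which changed sign in 4 cases (-0.46, -0.0919, -0.123 and -0.368). CatVII minus AnaVI ran, with 1 library left out, from 1.53 to 5.28 for WT-specific regions (5.28 without CatVII 3, 1.53 without CatVII 6) and from -12.7 to -2.45 for cKO-specific regions (-12.7 without CatVII 3, -2.45 without AnaVI 1). With all called peaks the cultures gave -1.58 and 3.25 and the stages 6.64 and -38.7 for WT-specific and cKO-specific regions, and with lists 2 times shorter -7.2 and 1.44, and 0.485 and -1.23.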
